A study of Mus musculus with 6 samples.

Results

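OPC_2 is a small group of cells in the oligodendrocyte cluster of the neonatal mouse cortex that carried transcripts of Dll1, Dbx2 and Olig2, the markers used to describe it here. In this cluster the authors report a small group of neural stem cells with Btg2, Dll1 and Dbx2, and give Olig2 for oligodendrocyte progenitor cells. Members of OPC_2 were the cells that the authors' annotation placed in this subtype, 104 of 18393 cells (17280 without those marked as doublets). Cells were taken from the cortex of 3 wild type mice (WT; FVB.129P2-Pde6b+ Tyrc-ch/AntJ) and 3 mice carrying the knockout allele Fmr1tm1Cgr on the background FVB.129P2-Pde6b+ Tyrc-ch (Fmr1-KO), at postnatal day 5, and both sexes were used. In the InDrop method a cell and a bead with a cell barcode meet in a droplet, and a random tag on every captured RNA, the unique molecular identifier (UMI), lets PCR copies count once. WT 1, Fmr1-KO 1 and Fmr1-KO 2 were made with bead version 2 and WT 2, WT 3 and Fmr1-KO 3 with version 3.8, and these are called batches 1 and 2.

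Oligodendrocytes arise from neural progenitors through oligodendrocyte precursor cells (OPCs), which divide, carry the receptor Pdgfra and depend on the transcription factors Olig1, Olig2 and Sox10. Progenitors on the way to differentiation express the Notch ligand genes Dll1 and Dll3. Through Dll1 they signal to neighbouring cells, in which Notch activity keeps genes of the Hes and Hey families on. OPC_2 is described here beside OPC_1 (1953 cells, the main OPC subtype of the same cluster), Ganglionic (682 cells, dividing inhibitory precursors of the ganglionic eminence) and Astrocytes_1 (6371 cells, immature astrocytes).

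OPC_2 cells came from every mouse and from all 17 libraries. There were 21, 19 and 17 cells in WT 1, 2 and 3 and 7, 21 and 19 cells in Fmr1-KO 1, 2 and 3. Their summed counts ranged from 31702 to 71053 UMIs per mouse, so that 1 UMI weighed 14.1 to 31.5 CPM (counts scaled to a common total) and a value at or under 3 UMIs lay under 42.2 to 94.6 CPM. The median OPC_2 cell held 3032 UMIs and 1614 genes, against 2772 UMIs in OPC_1, 3311 in Ganglionic and 3755 in Astrocytes_1. Levels are given as CPM of the summed counts of a mouse, and means ± SD are over the 5 mice with at least 10 OPC_2 cells, which leaves out Fmr1-KO 1. Intervals and floors cover counting error only.

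Libraries of the same mouse shared cell barcodes. Of 3307 pairs of cells with the same barcode in different libraries of 1 mouse, 3084 (93.3%) had the same subtype, against 78 of 468 pairs (16.7%) between mice. In OPC_2, 35 of the 104 cells had a barcode found in another library of their mouse, and 14 barcodes were shared by 2 or more OPC_2 cells of 1 mouse (30 cells). Counting such cells once left 88 OPC_2 cells, and leaving out every cell with a shared barcode left 69, with 15, 8 and 16 cells in WT 1, 2 and 3 and 6, 9 and 15 cells in Fmr1-KO 1, 2 and 3. The reason for the sharing was not tested. Some results are given below without these cells too. Shares of cells with a UMI of a gene are given only with them, and intervals and floors take every cell as separate.

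The levels below describe the cells and are not tests, since the clusters were made from the same transcripts. A UMI in 15% or more of OPC_2 cells was found for 3564 genes, and 44 of these (1.23%) had a mean log2(CPM + 10) at least 1 above each of OPC_1, Ganglionic and Astrocytes_1, and 3 were at least 2 above. Over all 16383 genes with a UMI in the 4 subtypes the share was 0.36%. Without cells of shared barcodes there were 46. Among the 20 genes that led this order were Prss23, a serine protease, and Dll1, followed by Nab2, Socs2, Inppl1, Dll3, Rnf122, Draxin, Lpin1, Egr3, Prr18, Sall3, Dbx2, Smoc1, Gsx1, Tnk2, Ddr1 and Lrrfip1. Each of the 20 leading genes was higher in OPC_2 than in all 3 comparison subtypes of the same mouse in each of the 5 mice, a direction that their choice favours. For 14 of the 20, OPC_2 was the highest of all 18 subtypes when cells were pooled over mice. The log2 difference to the highest of the 3 comparison subtypes ran from 2.85 for Prss23 to 1.27 for Lrrfip1, and its median over the 3564 genes was -0.27.

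**Figure D1:**
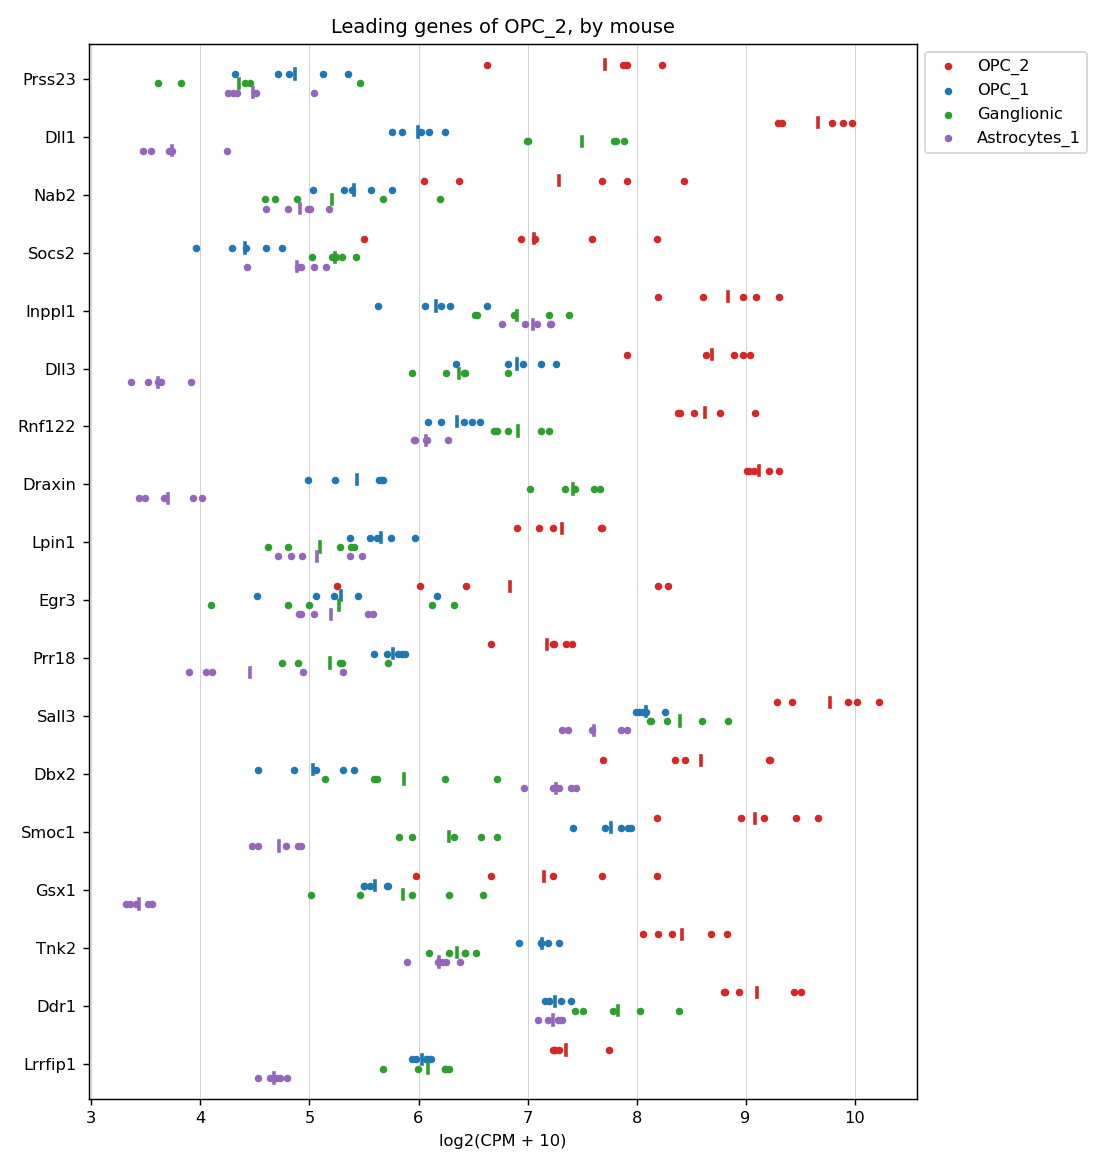
Levels of leading genes of OPC_2 as log2(CPM + 10) on the x axis, with 1 point per mouse (5 mice) and a bar at the mean, for OPC_2, OPC_1, Ganglionic and Astrocytes_1. OPC_2 points lie to the right of the other subtypes for most genes, by a mean difference of 2.16 for Dll1 over Ganglionic, while single mice approach the others for Egr3, Socs2 and Gsx1.

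The 3 marker genes separated OPC_2 from different neighbours. Dll1 stood at 619, 998 and 635 CPM in WT 1, 2 and 3, at 875 and 943 CPM in Fmr1-KO 2 and 3, and at 473 CPM in the 7 cells of Fmr1-KO 1. Its mean of 814 ± 176 CPM (SD, n = 5 mice) compared with 178 ± 54.8 CPM in Ganglionic, 54.1 ± 8.61 CPM in OPC_1 and 3.64 ± 3.11 CPM in Astrocytes_1, and no mouse of OPC_2 overlapped a mouse of the others. Dbx2, a homeobox gene of progenitor domains, was at 405 ± 174 CPM in OPC_2, 145 ± 19.3 CPM in Astrocytes_1, 52.7 ± 27.95 CPM in Ganglionic and 23.5 ± 7.83 CPM in OPC_1. Its OPC_2 values ranged from 197 CPM in WT 1 to 588 CPM in WT 2. Olig2 was at 1498 ± 385 CPM in OPC_2 and 1111 ± 78.9 CPM in OPC_1, and in only 3 of 5 mice above every comparison subtype, so that it set OPC_2 apart from Ganglionic (349 ± 110 CPM) and Astrocytes_1 (231 ± 43.9 CPM) but not from OPC_1. Btg2, an antiproliferative gene used as a further marker, was at 903 ± 268 CPM in OPC_2 and 843 ± 155 CPM in Astrocytes_1, and separated OPC_2 from OPC_1 (38.9 ± 26.9 CPM).

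Transcripts of the oligodendrocyte and Notch ligand genes occurred in the same cells. This follows from the detection of Olig1 or Olig2 in every OPC_2 cell. It held in OPC_1 too, where 584 of the 585 cells with Dll1 or Dll3 had Olig1 or Olig2. All 104 OPC_2 cells had a UMI of Olig1 or Olig2 (exact 95% interval 96.5% to 100%), against 6.91% of microglia, which should lack them. The share was 98.7% in OPC_1, 83.0% in Astrocytes_1 and 39.1% in Ganglionic cells, so that it did not set OPC_2 apart from OPC_1. Dll1 or Dll3 was detected in 88 of the 104 cells (84.6%), against 30.0% of OPC_1, 37.8% of Ganglionic, 1.95% of Astrocytes_1 and 0.864% of microglia cells (median of 2655.5 UMIs in microglia). After thinning each cell to 1000 UMIs, which left 95 OPC_2 cells and 1695 OPC_1 cells, the shares were 65.3% in OPC_2, 14.8% in OPC_1 and 18.7% in Ganglionic. Both Dll1 and Dll3 were seen in 50 OPC_2 cells (48.1%), against 4.25% of OPC_1 and 7.33% of Ganglionic cells. A UMI of Dlx1 or Dlx2, transcription factors of the inhibitory lineage, was found in 10 OPC_2 cells (9.62%) and in 67.3% of Ganglionic cells.

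The Notch ligand list was high through its Delta members. Dll3 was at 464, 230 and 388 CPM in WT 1, 2 and 3 and at 492 and 516 CPM in Fmr1-KO 2 and 3, a mean of 418 ± 116 CPM, against 112 ± 27.6 CPM in OPC_1 and 74.5 ± 18.7 CPM in Ganglionic. Of the 8 ligand genes, 3 were at least 1 above OPC_1 on the log2 scale and none was 1 below, where over all 16383 genes with a UMI in the 4 subtypes 298 (1.82%) were above and 2050 (12.5%) below. Jag1, a ligand of the Jagged type, was at 24.2 ± 27.2 CPM in OPC_2 and 92.4 ± 42.8 CPM in Ganglionic. The summed CPM of the list was 1473 ± 207 in OPC_2, 453 ± 34.8 in OPC_1, 436 ± 136 in Ganglionic and 200 ± 40.8 in Astrocytes_1. Without cells of shared barcodes the sums were 1566 ± 219 in OPC_2 and 457 ± 49.8 in OPC_1.

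Among receptors and modifiers, the fringe glycosyltransferases stood out. Mfng was at 127 ± 42.5 CPM in OPC_2, 69.9 ± 18.1 CPM in Ganglionic, 8.57 ± 5.60 CPM in OPC_1 and 0.726 ± 0.215 CPM in Astrocytes_1. Lfng was at 143 ± 108 CPM in OPC_2 and 4.70 ± 3.18 CPM in OPC_1, and overlapped Astrocytes_1 at 134 ± 43.4 CPM. Notch1 itself was at 350 ± 101 CPM and above every comparison subtype in 4 of 5 mice. Of the 15 genes of this list, 2 were above and 1 below OPC_1 by 1 or more, where 1.82% of all genes were above and 12.5% below.

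Target genes of Notch did not show the same order. Their summed level was 508 ± 146 CPM in OPC_2, 599 ± 73.7 CPM in OPC_1, 454 ± 70.1 CPM in Ganglionic and 1742 ± 103 CPM in Astrocytes_1. Of 6 targets, none was 1 above OPC_1 and 2 were 1 below, where 1.82% of all genes were above and 12.5% below. Against Astrocytes_1 5 were 1 below, where 1719 of all 16383 genes (10.5%) were. Nrarp, a feedback inhibitor of Notch signalling, was at 55.9 ± 35.3 CPM in OPC_2 and 290 ± 31.8 CPM in OPC_1. Hes1 was at 34.9 ± 44.0 CPM in OPC_2 and 57.7 ± 10.3 CPM in OPC_1, within a few UMIs per mouse. Hes5 was at 297 ± 85.0 CPM in OPC_2, 258 ± 91.2 CPM in Ganglionic and 145 ± 29.5 CPM in OPC_1.

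Proneural and early neurogenic genes were at 5967 ± 517 CPM in sum in OPC_2, between OPC_1 (1872 ± 242 CPM) and Ganglionic (9341 ± 860 CPM), and the mice of the 3 subtypes did not overlap. Of the 18 genes, 7 were 1 or more above OPC_1 and 2 below, where 1.82% of all genes were above and 12.5% below. Against Ganglionic 1 was above and 8 were below, where 468 (2.86%) of all genes were above and 1188 (7.25%) below. Some members had means above those of Ganglionic. Hes6, which antagonises Hes1, was at 684 ± 207 CPM in OPC_2 and 441 ± 138 CPM in Ganglionic, and Sox4 at 1939 ± 199 CPM and 1056 ± 176 CPM. Other members were lower in OPC_2. Sox11 was at 1002 ± 175 CPM in OPC_2 and 3510 ± 381 CPM in Ganglionic, and Insm1 at 64.1 ± 74.9 CPM and 705 ± 93.2 CPM.

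OPC markers were present at about the level of OPC_1 for some genes and far below for others. Their summed CPM was 9018 ± 674 in OPC_2, 17627 ± 973 in OPC_1, 2032 ± 454 in Ganglionic and 4607 ± 743 in Astrocytes_1. Of 20 markers, 15 were at least 1 below OPC_1 and none above, where 12.5% of all genes were below and 1.82% above. Against Ganglionic 11 were above and none below, where 2.86% of all genes were above and 7.25% below. Olig1 (4454 ± 847 CPM in OPC_2, 3815 ± 653 CPM in OPC_1), Rlbp1 (731 ± 148 CPM and 713 ± 97.3 CPM) and Sox8 (312 ± 179 CPM and 265 ± 29.3 CPM) differed from OPC_1 by less than the spread between mice. Pdgfra was at 380, 230 and 582 CPM in the WT mice and at 474 and 338 CPM in Fmr1-KO 2 and 3, a mean of 401 ± 134 CPM against 3357 ± 346 CPM in OPC_1. It was detected in 41 OPC_2 cells (39.4%) and in 94.1% of OPC_1 cells. Sox10 was at 297 ± 122 CPM in OPC_2 and 1166 ± 101 CPM in OPC_1, Cspg4, the proteoglycan NG2, at 67.3 ± 38.2 CPM and 864 ± 143 CPM, and Lhfpl3 at 125 ± 38.9 CPM and 1190 ± 76.1 CPM. The 41 cells with Pdgfra had a median of 3772 UMIs and the 63 cells without it 2148 UMIs, and Dll1 or Dll3 was seen in 87.8% and 82.5% of them.

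Genes of committed precursors also lay below OPC_1. Gpr17, a receptor that marks precursors at the point of differentiation, gave 3 UMIs in OPC_2 and was detected in 2 of 104 cells, against 81.3% of OPC_1 cells and 1288 ± 213 CPM in OPC_1. Of the 12 genes of this list, 7 were 1 or more below OPC_1 and none was above, where 12.5% of all genes were below and 1.82% above. Bcas1 was an exception, at 250 ± 84.3 CPM in OPC_2 and 264 ± 51.6 CPM in OPC_1. The summed myelin genes were at 296 ± 111 CPM in OPC_2 and 528 ± 68.5 CPM in OPC_1.

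Over all genes tested, 195 of 3564 (5.47%) were 1 or more above OPC_1 and 189 (5.3%) below on the log2 scale. Against Ganglionic 7.32% were above and 3.98% below, and against Astrocytes_1 16.3% were above and 6.73% below. The filter on detection in OPC_2 favours genes above. Over all 16383 genes the balance turned round, with 1.82% above and 12.5% below OPC_1, 2.86% above and 7.25% below Ganglionic, and 5.19% above and 10.5% below Astrocytes_1. Of these genes 4930 had no UMI in OPC_2, where 1 UMI weighed 14.1 to 25.6 CPM in the 5 mice. The part of such sparse counts in the shares below was not tested. Among the 10 largest differences upward were those of Btg2 (4.29), Tead2 (3.73), Draxin (3.69), Dll1 (3.67), Egfr (3.65), Dbx2 (3.55), Tgif2 (3.47), Gadd45g (3.36) and Lfng (3.18). Egfr, the receptor of epidermal growth factor, was at 275 ± 95.03 CPM in OPC_2, 130 ± 60.1 CPM in Ganglionic, 71.0 ± 7.62 CPM in Astrocytes_1 and 11.98 ± 2.77 CPM in OPC_1. Tead2, a transcription factor of the Hippo pathway, was at 145 ± 41.5 CPM in OPC_2 and 163 ± 11.9 CPM in Ganglionic and at 1.36 ± 0.932 CPM in OPC_1. Draxin, a secreted axon guidance protein, lay between 507 and 622 CPM in the 5 mice. Among genes seen in 15% or more of OPC_1 cells, those furthest below OPC_1 were Gpr17, 3110035E14Rik, Ptpre, Gria3, Top2a, Mki67, Emid1, Sstr1, Tagln2 and Mfsd2a. Ptpre, Emid1, Mki67 and Tagln2 had no UMI in the 104 OPC_2 cells, which against a floor of 3 counts over all OPC_2 cells (9.69 CPM) put Ptpre at least 33.6-fold, Mki67 at least 25.9-fold, Emid1 at least 24.0-fold and Tagln2 at least 22.6-fold lower than in pooled OPC_1 cells.

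OPC_2 differed from all 3 comparison subtypes in genes of the G2 and M phases of cell division. No OPC_2 cell had a UMI of Mki67 (0 of 104 cells, which allows a share of cells with a UMI of up to 2.88% at a floor of 3 counts), against 18.8% of OPC_1, 70.4% of Ganglionic and 9.53% of Astrocytes_1 cells. Top2a was seen in 1 OPC_2 cell (0.962%), and in 21.2% of OPC_1 cells. The 25 genes of the G2 and M phases summed to 281, 205 and 194 CPM in WT 1, 2 and 3 and 346 and 124 CPM in Fmr1-KO 2 and 3, against 2799 ± 621 CPM in OPC_1, 10287 ± 1181 CPM in Ganglionic and 1166 ± 109 CPM in Astrocytes_1. Of these genes 10 had no UMI in OPC_2, and all 25 were 1 or more below OPC_1 and below Ganglionic, and 21 were below Astrocytes_1. Over all 16383 genes 12.5% were below OPC_1, 7.25% below Ganglionic and 10.5% below Astrocytes_1. No OPC_2 cell held 5 or more UMIs of these genes, against 22.5% of OPC_1 cells and 83.7% of Ganglionic cells. In cells thinned to 1000 UMIs, 17.9% of OPC_2, 37.4% of OPC_1 and 92.6% of Ganglionic cells held at least 1.

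**Figure D2:**
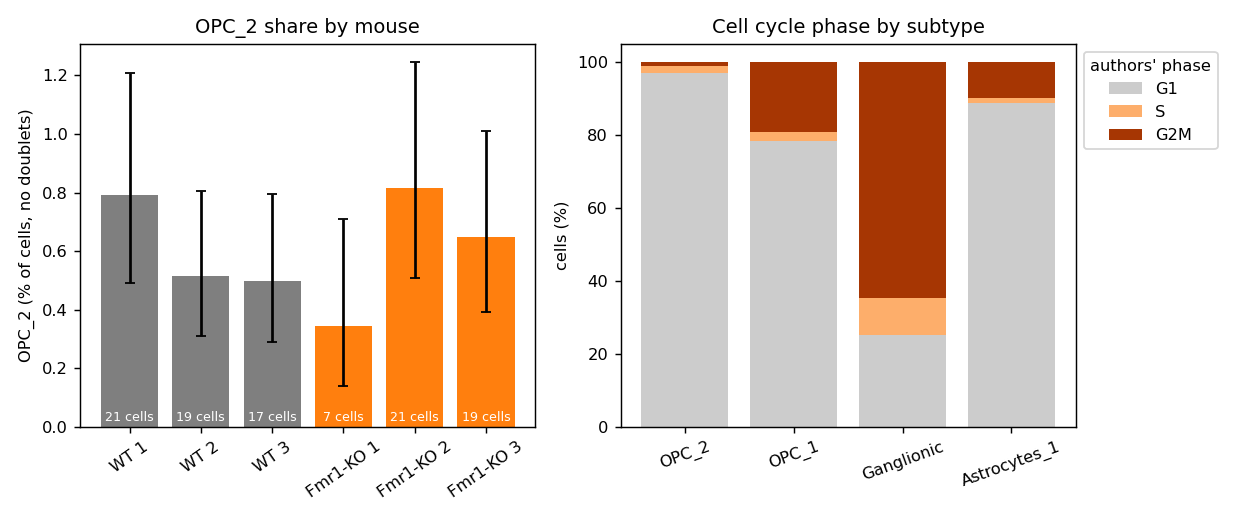
Left, OPC_2 cells as a percentage of the cells of each mouse with exact 95% binomial intervals (grey, WT; orange, Fmr1-KO), and right, the authors' phase calls as a percentage of the cells of each subtype. The shares of the mice lie between 0.345% and 0.816% with intervals that overlap, and G2M takes 0.962% of OPC_2 and 64.7% of Ganglionic cells.

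By the deposited phase calls, 101 OPC_2 cells were in G1, 2 in S and 1 in G2M. The G2M share of 0.962% (exact 95% interval 0.0243% to 5.24%) compared with 19.0% in OPC_1, 64.7% in Ganglionic and 9.90% in Astrocytes_1. Of the 69 OPC_2 cells without a shared barcode, 68 were called G1 and 1 S, while 16.7% of such OPC_1 cells were called G2M. S phase genes behaved differently from those of G2 and M. They summed to 1167 ± 575 CPM in OPC_2, which overlapped OPC_1 (1620 ± 169 CPM) and Astrocytes_1 (831 ± 115 CPM), and ranged from 640 CPM in WT 2 to 2097 CPM in Fmr1-KO 2. Of the 25 S phase genes, 1 was 1 or more above OPC_1 and 10 below, where 1.82% of all genes were above and 12.5% below. All 25 were 1 or more below Ganglionic, where 7.25% of all genes were. Against Astrocytes_1 2 were above and 1 below, where 5.19% of all genes were above and 10.5% below. Mcm7, a subunit of the replicative helicase, was at 180 ± 69.7 CPM in OPC_2 and 77.6 ± 5.21 CPM in OPC_1. The G1 kinases Cdk4 (845 ± 113 CPM in OPC_2, 408 ± 39.9 CPM in OPC_1) and Cdk6 (151 ± 94.9 CPM and 29.3 ± 6.85 CPM) were higher than in OPC_1 in the mean, and the cyclin Ccnd2 was at 556 ± 233 CPM in OPC_2 and 4588 ± 1465 CPM in Ganglionic. Ccnd1 was at 183 ± 122 CPM in OPC_2 and 516 ± 73.5 CPM in OPC_1.

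The summed CPM of the neural stem and radial glia genes was lower in OPC_2 than in OPC_1 and Astrocytes_1 in every mouse. It was higher than in Ganglionic in 4 of 5 mice, and the group is called by the authors' code here. The sums were 6162 ± 1173 CPM in OPC_2, 8868 ± 273 CPM in OPC_1, 34485 ± 3378 CPM in Astrocytes_1 and 5144 ± 482 CPM in Ganglionic. Gene by gene the list was not lower than OPC_1, with a median log2 difference of 0.19. Of the 20 genes, 4 were 1 or more above OPC_1 and 5 below, where 1.82% of all genes were above and 12.5% below. Against Astrocytes_1 2 were above and 10 below, where 850 (5.19%) of all genes were above and 1719 (10.5%) below. Fabp7 was at 1462 ± 328 CPM in OPC_2 and 18460 ± 3199 CPM in Astrocytes_1, and Slc1a3 at 631 ± 257 CPM and 6725 ± 1729 CPM. Among the members above OPC_1 were Egfr and Mfge8 (947 ± 248 CPM in OPC_2, 94.5 ± 14.5 CPM in OPC_1). Sox3 was at 324 ± 168 CPM, and above each comparison subtype in 4 of 5 mice.

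**Figure D3:**
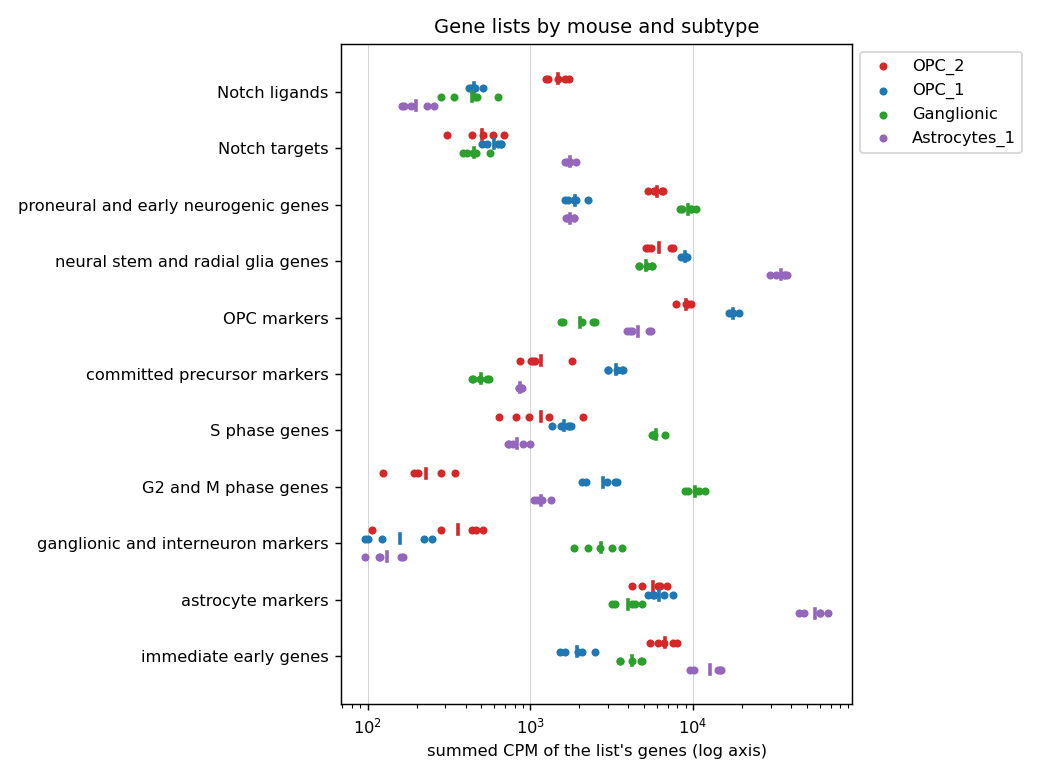
Summed CPM (log axis) of the genes of 11 lists, with 1 point per mouse (5 mice) and a bar at the mean for OPC_2, OPC_1, Ganglionic and Astrocytes_1. OPC_2 is highest for Notch ligands (mean 1473 CPM), lies between OPC_1 and Ganglionic for proneural genes and OPC markers, and is lowest for G2 and M phase genes (mean 230 CPM).

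Homeobox genes that pattern regions of the nervous system gave 1064 ± 240 CPM in OPC_2, 630 ± 35.01 CPM in OPC_1, 1356 ± 145 CPM in Ganglionic and 1000 ± 41.3 CPM in Astrocytes_1. Gsx1, which is expressed in ventral telencephalic progenitors, was at 152 ± 89.8 CPM in OPC_2, from 52.9 CPM in WT 3 to 281 CPM in WT 2, and at 38.5 ± 3.82 CPM in OPC_1. The list of ganglionic and interneuron markers summed to 359 ± 166 CPM in OPC_2, 158 ± 71.8 CPM in OPC_1 and 2726 ± 708 CPM in Ganglionic. Of the 12 markers in the table, 9 were 1 or more below Ganglionic and none was above, where 7.25% of all genes were below and 2.86% above.

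Immediate early genes, which respond within minutes to stimulation and to tissue handling, were at 6736 ± 1048 CPM in sum in OPC_2, 1937 ± 389 CPM in OPC_1, 4204 ± 628 CPM in Ganglionic and 12692 ± 2615 CPM in Astrocytes_1. Of 20 genes, 9 were 1 or more above OPC_1 and none below, where 1.82% of all genes were above and 12.5% below. Egr1 was at 1804 ± 441 CPM in OPC_2 and 433 ± 76.5 CPM in OPC_1. Its relative Egr3 and Nab2, a corepressor of Egr proteins, were among the 20 leading genes, with Egr3 spread from 28.1 CPM in WT 1 to 302 CPM in Fmr1-KO 3. Jund was at 641 ± 166 CPM in OPC_2 and above each comparison subtype in all 5 mice. The part of dissociation in these levels was not tested.

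Transcripts of vascular, immune and ependymal cells were few. Endothelial and pericyte markers gave 10 UMIs in all over the 104 cells, microglia markers 7 and ependymal markers 11, and their sums were at most 72.9 CPM in any mouse. Excitatory neuron markers summed to 238 ± 244 CPM in OPC_2 and 275 ± 216 CPM in OPC_1. They differed between batches, with 549, 315 and 456 CPM in OPC_2 of WT 1, Fmr1-KO 1 and Fmr1-KO 2 (batch 1) and 76.7, 52.9 and 53.4 CPM in WT 2, WT 3 and Fmr1-KO 3 (batch 2), and in OPC_1 466 to 528 CPM in batch 1 and 74.5 to 213 CPM in batch 2. Astrocyte markers summed to 5663 ± 1096 CPM, against 6186 ± 907 CPM in OPC_1 and 56156 ± 9493 CPM in Astrocytes_1. Of these, 17 of 20 were 1 or more below Astrocytes_1, where 10.5% of all genes were. Aqp4 was seen in 1 OPC_2 cell.

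Over 3564 genes, the pooled profile of OPC_2 was most like those of Ganglionic (Pearson's r = 0.825, Spearman's rho = 0.755) and OPC_1 (0.820 and 0.763), followed by Astrocytes_2 (0.774 and 0.721), Interneuron (0.728 and 0.675) and Astrocytes_1 (0.705 and 0.654). These correlations are across genes, which are not independent, and they share the library and depth of each mouse. The order of Ganglionic and OPC_1 changed with the measure, and within mice OPC_1 was ahead in WT 1, Fmr1-KO 1 and Fmr1-KO 2 (batch 1) and Ganglionic in WT 2, WT 3 and Fmr1-KO 3 (batch 2), so that the order followed the batch. Genes that separate the 2 neighbours were taken without regard to OPC_2. For 370 genes 2 or more higher in OPC_1 than in Ganglionic on the log2 scale, OPC_2 was nearer to OPC_1 for 79, with a median difference of -2.23 from OPC_1 and 0.64 from Ganglionic. For 83 genes 2 or more higher in Ganglionic, OPC_2 was nearer to OPC_1 for 50, with a median difference of -2.04 from Ganglionic and 0.94 from OPC_1. In both sets OPC_2 was thus nearer, for most genes, to the subtype where they were lower. The part of the small OPC_2 sums in this was not tested.

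Whether the loss of Fmr1 changed OPC_2 was compared over mice. Fmr1 gave 8, 5 and 7 UMIs in WT 1, 2 and 3 and 0, 0 and 2 UMIs in Fmr1-KO 1, 2 and 3, that is 113, 128 and 124 CPM against 0, 0 and 35.6 CPM. The groups did not overlap, also within each batch, and an exact permutation test over the 6 mice gave p = 0.1 (two-sided), the smallest that 3 against 3 mice allow. In the fit across genes, Fmr1 fell by 2.56 on the log2 scale (SE 0.92, edgeR's quasi-likelihood test, unadjusted p = 0.0078, adjusted p = 1.0), without Fmr1-KO 1. This fold change rests on few UMIs and was -1.12 in thinned cells. Without Fmr1-KO 3 the Fmr1-KO mouse left in the fit had no UMI of Fmr1, and no fold is given. UMIs are read near the 3′ end of transcripts, so that they give the level of the transcript and not the state of the disrupted part of the gene.

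OPC_2 made up 0.602% ± 0.164 of the cells of WT mice and 0.603% ± 0.239 of those of Fmr1-KO mice (SD, n = 3 mice each), doublets left out. The shares were 0.792%, 0.516% and 0.498% in WT 1, 2 and 3 and 0.345%, 0.816% and 0.648% in Fmr1-KO 1, 2 and 3, so that the Fmr1-KO values spanned the WT values. In edgeR's quasi-likelihood test over 18 subtypes with batch as covariate, the log2 fold change was -0.04 (SE 0.90, adjusted p = 0.97), and an exact permutation test of the shares gave p = 1 with 0.1 as the smallest possible. In batch 1 the single WT mouse was at 0.792% between the Fmr1-KO mice, and in batch 2 the single Fmr1-KO mouse at 0.648% was above both WT mice. Of the oligodendrocyte lineage, OPC_2 took 4.68% ± 1.75 in WT and 4.21% ± 1.57 in Fmr1-KO mice (exact permutation p = 0.6).

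No gene passed the test between genotypes in OPC_2 at an adjusted p under 0.01 and the fold minimum of the study's methods, among 3564 genes (0%), in edgeR's quasi-likelihood test over WT 1 to 3 and Fmr1-KO 2 and 3. There were 146 genes (4.1%) at an unadjusted p under 0.05 in edgeR, and DESeq2 called 0 genes with 12 at an unadjusted p under 0.05. This does not show that levels were equal. The smallest adjusted p was that of Nr4a1, an immediate early gene that encodes a nuclear receptor, at 0.068. Nr4a1 was at 56.3, 307 and 335 CPM in WT 1, 2 and 3 and at 583 and 783 CPM in Fmr1-KO 2 and 3, a log2 fold change of 1.88 (SE 0.39). The groups did not overlap among these 5 mice, which the choice by p favours. Fmr1-KO 1, which was not in the fit, lay within the WT values at 158 CPM. A few cells carried most of the UMIs, with 16 in 1 cell among 32 in Fmr1-KO 2, 16 in 1 cell among 44 in Fmr1-KO 3 and 13 in 1 cell among 19 in WT 3. Nr4a1 passed the threshold without cells of shared barcodes (log2 fold change 2.61, adjusted p = 0.0015 in edgeR's test) and without WT 3 (2.14, adjusted p = 0.0094). In cells thinned to 1000 UMIs its log2 fold change was 1.05 (edgeR, adjusted p = 0.99).

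The other genes with the smallest p were Pdia6, Rps27, Lrpap1 and Rsl24d1 on the higher side and Afap1, Maml1, Specc1l, Tmem256 and Mest on the lower side of Fmr1-KO, with adjusted p from 0.60 to 0.97 in edgeR's test. Pdia6, a protein disulfide isomerase of the endoplasmic reticulum, was at 28.1, 102 and 124 CPM in the WT mice and 401 and 249 CPM in Fmr1-KO 2 and 3. Mest, an imprinted gene, was at 141, 230 and 300 CPM in the WT mice and at 36.5 and 53.4 CPM in Fmr1-KO 2 and 3. Maml1, a coactivator of Notch, was at 70.4, 153 and 70.6 CPM in the WT mice and had no UMI in Fmr1-KO 2 and 3, but was at 126 CPM (4 UMIs) in Fmr1-KO 1. Tmem256 was at 296, 179 and 88.2 CPM in the WT mice and 18.2 and 53.4 CPM in Fmr1-KO 2 and 3, but at 315 CPM in Fmr1-KO 1, and its log2 fold change of -2.38 became -1.14 with every mouse in the fit. The summed immediate early genes were at 5433, 6651 and 6053 CPM in WT 1, 2 and 3 and 7967 and 7577 CPM in Fmr1-KO 2 and 3, with Fmr1-KO 1 at 6877 CPM (exact permutation p = 0.2 over the 5 mice, the smallest that 3 against 2 mice allow). Among these 5 mice the groups did not overlap, which alone could not reach a p of 0.05.

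**Figure D4:**
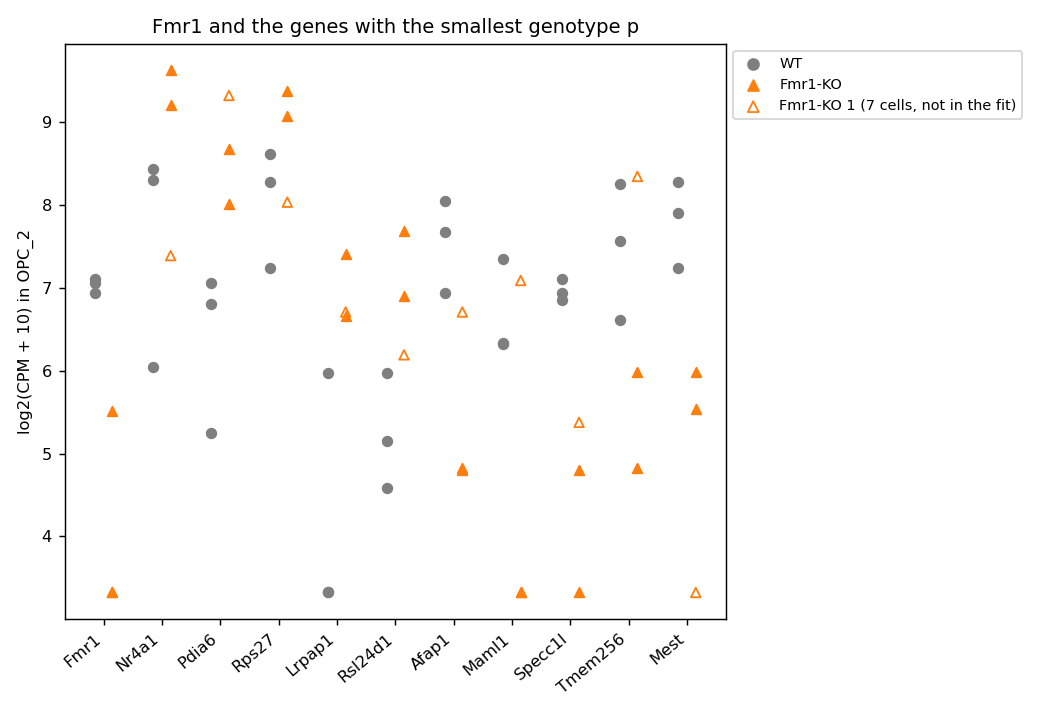
Levels in OPC_2 as log2(CPM + 10) on the y axis for Fmr1 and the 5 genes with the smallest genotype p on each side, with 1 point per mouse (grey circles, WT; orange triangles, Fmr1-KO; open triangle, Fmr1-KO 1, which was not in the fit). Grey circles and filled triangles do not overlap for any of these genes, which the choice by p over the same mice favours for all but Fmr1. The open triangle lies among the WT points for Nr4a1 (158 CPM), Rps27 (252 CPM) and Maml1 (126 CPM) and above them for Tmem256 (315 CPM).

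Whether the genotype acted differently in OPC_2 and OPC_1 was tested as an interaction term, with each mouse as a block. None of 4565 genes (0%) passed in edgeR's quasi-likelihood test, with 196 (4.29%) at an unadjusted p under 0.05, and none in DESeq2, with 66 at an unadjusted p under 0.05. This does not show that the genotype acted alike in both subtypes. The 5 smallest p belonged to Nr4a1, Afap1, Maml1, Pdia6 and Camk2n1. For Nr4a1 the term was 2.08 on the log2 scale (SE 0.42, adjusted p = 0.021 in edgeR). OPC_1 was at 223, 318 and 212 CPM of Nr4a1 in the WT mice and 199 and 167 CPM in Fmr1-KO 2 and 3, in the opposite order to OPC_2. Without cells of shared barcodes the term for Nr4a1 passed (edgeR, adjusted p = 4.9e-07), and so it did without WT 3 (edgeR, adjusted p = 0.00022). It passed without Fmr1-KO 2 (edgeR, adjusted p = 0.0030), where Fmr1-KO 3 alone stood for its genotype and was assumed to vary like the other mice. No gene passed without WT 1, WT 2 or Fmr1-KO 3, where the smallest adjusted p of any gene in edgeR's test was 0.52, 1 and 0.52.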

How the data were processed

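The members and the gene lists were chosen with earlier results of these data known. Cortices of 3 WT and 3 Fmr1-KO mice were dissociated with papain and sequenced as 17 InDrop libraries. The authors made the deposited counts (UMIs per gene and cell) with bcl2fastq, TopHat2 2.0.14 (mm10, per the submitters' notes), RefSeq and ESAT without multimapping reads. They kept cells with enough UMIs, removed erythrocytes and possible doublets, and clustered in several rounds. The deposited counts still hold cells that the authors marked as doublets. The deposited size factors, a ratio per cell from scran, entered an alternative only. Subtypes and phases were taken from the authors' annotation, and the subtype Doublets (1113 cells) was left out of the totals behind the shares of cells.

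UMIs were summed per mouse and subtype over 17418 genes. Mice with at least 10 OPC_2 cells and genes seen in 15% or more of OPC_2 cells were used. Levels are means of log2(CPM + 10), and a difference of 1 (2-fold) was counted. Genotypes were compared with edgeR 4.0.16 (quasi-likelihood, TMM, batch as covariate, Benjamini-Hochberg adjustment) in R 4.3.3, with DESeq2 1.42.0 as an alternative, and single values with exact permutation tests (SciPy 1.17.1, two-sided). The study took cells as replicates, and mice were used here. The fits were tested on simulated data, in which nearly all changes of 1 and most changes of 2 on the log2 scale were missed. A count of 0 thus does not show equal levels. No source says more on how the mice relate, so that p-values measure the spread between these animals.

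Named were the markers, the 20 genes with the largest difference to the highest of the 3 comparison subtypes, the 10 furthest above and below OPC_1, the 5 of smallest genotype p on each side and of the interaction term, and members of the lists as examples of each list. Genes named only as examples, and the genes separating OPC_1 from Ganglionic, were chosen after their values were seen.

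Alternatives were no batch term, a replicate block, library sizes without TMM, other filters, other sets of mice, thinned cells, CPM offsets, size factors and leaving out each mouse. Those on shared barcodes were chosen after seeing the data. Some of the genes that these rules name are not reported here.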

Additional observations from a re-analysis of the deposited data

How the results depend on the processing

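The count of 0 genes changed between genotypes became 1, Nr4a1, with edgeR's filterByExpr and without cells of shared barcodes, and was 0 to 1 when each mouse was left out. Over the alternatives its adjusted p (edgeR, DESeq2) ran from 0.0015 to 1.0. The count for the genotype effect in OPC_2 against OPC_1 became 1, again Nr4a1, at an adjusted p under 0.05 and without cells of shared barcodes, and was 0 to 1 without each mouse. The 44 genes above each comparison subtype became 19 with a CPM offset of 50 and 3 with a difference of 2, and were 44 to 53 without each mouse. The log2 fold change of the OPC_2 share reversed to 0.015 without the batch term and to 0.0032 without cells of shared barcodes, and ran from -0.43 to 0.35 without each mouse (0.35 without WT 1, 0.22 without Fmr1-KO 1). Socs2 reversed to -0.33 in thinned cells, where the correlations fell to 0.778 for OPC_1, 0.773 for Ganglionic and 0.679 for Astrocytes_1. The cause was not tested.

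The correlations of the deviations of same-numbered mice were 0.04, -0.09 and 0.07 in OPC_2, whose small sums cannot show whether the mice were paired. In OPC_1 they were 0.50, -0.34 and 0.56. Mice of other numbers but the same batch reached 0.48 (WT 1 and Fmr1-KO 2) and 0.51 (WT 2 and Fmr1-KO 3) there. WT 2 and Fmr1-KO 2, at -0.34, share a number but not a batch, and pairs of different batches lay between -0.69 and -0.34. The sign in OPC_1 thus followed the batch. Whether the mice were also paired was not tested. With a replicate block 0 genes were called, 136 had an unadjusted p under 0.05, the share's log2 fold change was -0.01 and that of Fmr1 -2.65. Of 220 alternatives for the 20 leading genes 206 stayed within the spread of the mice. Fmr1 gave at most 8 UMIs per mouse, and the parts of depth and of the number of mice in the genotype counts were not separated. A minimum of 15 cells kept the same mice.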

Other observations

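Receptors and effectors of growth factors and Shh summed to 2150 ± 270 CPM in OPC_2, 4524 ± 334 CPM in OPC_1, 1389 ± 297 CPM in Ganglionic and 2830 ± 207 CPM in Astrocytes_1 (SD, n = 5 mice). Of the 22 genes, 5 were at least 1 above and 5 at least 1 below OPC_1 on the log2 scale. Over all 16383 genes 1.82% were above and 12.5% below. Besides Egfr, Igf1r, the receptor of insulin-like growth factor 1, was at 339 ± 113 CPM in OPC_2 and 168 ± 45.2 CPM in OPC_1, and was above each comparison subtype in 4 of 5 mice. Spry2, an inhibitor of receptor tyrosine kinase signalling, was at 362 ± 74.7 CPM in OPC_2, 122 ± 16.7 CPM in OPC_1 and 345 ± 44.4 CPM in Astrocytes_1. Its relative Spry1 had the opposite order, at 38.9 ± 33.3 CPM in OPC_2 and 146 ± 8.55 CPM in OPC_1.

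Cyclins of G1, the kinases Cdk4 and Cdk6 and CDK inhibitors summed to 2097 ± 389 CPM in OPC_2, 1770 ± 241 CPM in OPC_1 and 6383 ± 1509 CPM in Ganglionic. The levels of Cdk4 and Cdk6 given above are part of these sums. Of 10 genes 2 were above and 3 below OPC_1, where 1.82% of all genes were above and 12.5% below. Fmr1 and its paralogs Fxr1 and Fxr2 summed to 310 ± 65.9 CPM in OPC_2 and 235 ± 43.6 CPM in OPC_1, with Fxr1 at 154 ± 56.2 CPM and 85.6 ± 2.18 CPM.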
